A study of Mus musculus with 4 samples.

Results

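This report covers the genes of the vascular endothelial growth factor (VEGF) and angiopoietin systems in the mouse inferior vena cava. The set holds 10 genes, taken by symbol: the ligands Vegfa, Vegfb, Vegfc and Pgf, the receptors Flt1, Kdr and Flt4, the co-receptor Nrp1, and the angiopoietins Angpt1 and Angpt2. All 10 were measured, each by exactly 1 probe set whose annotation names that gene alone, among 18820 genes with such a probe set. All 10 also belonged to the 14115 genes kept after those under the 25th percentile of the mean log2 value were left out. A total of 4 groups were measured with 1 array each: Cd39-/- mice with the vein ligated for 48 h, Cd39-/- mice after sham surgery, wild-type mice ligated for 48 h, and wild-type mice after sham surgery. Each array held RNA pooled from 4 mice. The mice of all groups were males or females of 8 to 10 weeks, on the C57BL/6J background after 8 or more generations of breeding, and the labels do not give the sex of each pool. On each of the 4 arrays the Y-linked genes Uty, Kdm5d and Eif2s3y were above background (4.35 to 6.17), and Xist, which is expressed from the inactive X chromosome of females, was under it (1.58 to 1.90). Cd39, the product of Entpd1, breaks down extracellular ATP and ADP. The vein was tied below the kidneys so that blood stood still and clotted, completely in some experiments and partially in others, while sham surgery exposed the vein without tying it. The labels describe clot and vein being separated for biochemical work, and do not say whether this was done before RNA extraction.

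VEGF ligands are secreted proteins that bind receptor tyrosine kinases on endothelial cells. Vegfa acts mainly through Kdr, the receptor that drives endothelial growth and permeability, while Flt1 binds Vegfa, Vegfb and Pgf and in its soluble form traps them. Vegfc acts through Flt4, the receptor of lymphatic endothelium, and Nrp1 holds VEGF ligands at the cell surface. Angpt1, made by cells around the vessel and carried by platelets, activates the receptor Tek and keeps the endothelium quiet, whereas Angpt2, made and stored by endothelial cells, can oppose it. A whole-transcript probe set does not separate the splice forms of Vegfa or the soluble from the membrane form of Flt1.

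RefSeq start sites of assembly GRCm38.p6 were matched for 8 of the 10 genes. The 250 bases before the start are printed for the ligands Vegfa and Pgf, which were highest on the ligated Cd39-/- array, and for the receptor Kdr, which was highest in wild-type sham vein. For Vegfa and Pgf, which have 2 listed starts each, the most upstream was taken. Capitals mark GGGCGG, the letters of a GC box, and GCGTG, a form of the core of hypoxia response elements, on either strand.
Vegfa, chr17:46032378-46032627, minus strand: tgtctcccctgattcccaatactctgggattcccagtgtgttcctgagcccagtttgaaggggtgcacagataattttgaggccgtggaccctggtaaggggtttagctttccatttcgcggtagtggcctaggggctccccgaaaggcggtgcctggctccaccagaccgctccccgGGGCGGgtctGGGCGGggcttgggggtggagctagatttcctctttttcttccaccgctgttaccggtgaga
Pgf, chr12:85177314-85177563, minus strand: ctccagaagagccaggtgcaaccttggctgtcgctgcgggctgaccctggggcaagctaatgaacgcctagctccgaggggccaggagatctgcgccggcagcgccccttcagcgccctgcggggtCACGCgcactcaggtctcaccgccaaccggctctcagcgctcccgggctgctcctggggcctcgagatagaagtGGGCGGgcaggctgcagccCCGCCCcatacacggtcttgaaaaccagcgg
Kdr, chr5:75978456-75978705, minus strand: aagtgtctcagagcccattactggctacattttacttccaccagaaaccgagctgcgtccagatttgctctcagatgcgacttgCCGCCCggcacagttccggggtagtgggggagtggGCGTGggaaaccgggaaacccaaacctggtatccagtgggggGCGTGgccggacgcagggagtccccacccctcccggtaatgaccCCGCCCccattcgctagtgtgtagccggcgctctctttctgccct
No matches overlapped in these 3 windows. GGGCGG was found in the windows of 8 of 8 genes, against 32.7% of 32851 windows of this length, and GCGTG in 5 of 8, Pgf and Kdr among them, against 28.2%. The other hypoxia core, ACGTG (16.6% of all windows), and the AP-1 letters TGACTCA (4.46%) were found in 0 of the 8 windows. The windows had a GC content of 59.2% to 76.4%, above the median of 52.4% of all windows, and GC-rich letters are more frequent in GC-rich windows. These matches describe the letters of the windows and show no binding.

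The deposited values are log2 expression values, so a difference of 1 is a 2-fold difference. Each group being 1 array, differences between single arrays are given as values without a p-value or replicate error. As a stand-in for background, the 95th percentile of 1006 olfactory receptor probe sets was 2.68 on the ligated Cd39-/- array, 2.97 in Cd39-/- sham, 2.66 in wild type ligated and 2.94 in wild type sham. The targeted gene Entpd1 had log2 values of 6.14 on the ligated Cd39-/- array, 4.16 in Cd39-/- sham, 6.17 in wild type ligated and 7.11 in wild type sham. It was thus low in Cd39-/- sham, though above background there. On the ligated array of that genotype it was not low, which goes against the label. That array is therefore called the array labelled Cd39-/-, ligated. Every direction drawn from that array rests on its label. All 19 endothelial markers lay above background on each of the 4 arrays.

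**Figure D1:**
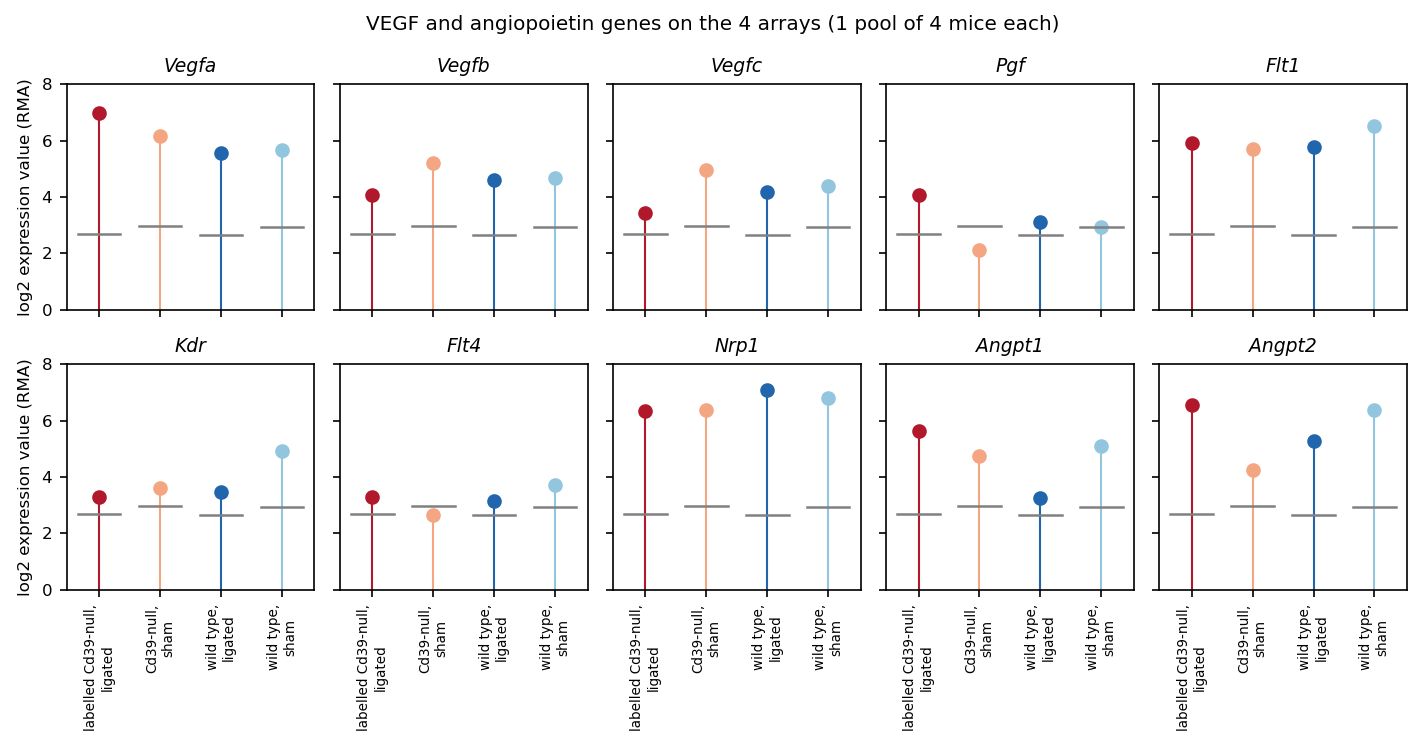
Log2 expression value (vertical axis) of each gene on the 4 arrays, 1 pool of 4 mice each; the grey line is the olfactory receptor background of that array. Vegfa, Pgf, Angpt1 and Angpt2 are highest on the array labelled Cd39-/-, ligated, Flt1, Kdr and Flt4 are highest in wild type sham, and Pgf and Flt4 lie under the background in Cd39-/- sham.

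The question behind the series is how gene expression in the vein changes 48 h after stasis, with and without Cd39. In wild type the VEGF ligands differed by less than 2-fold between ligated and sham vein, while Kdr, Angpt1 and Angpt2 were at least 2-fold lower after ligation and no member was at least 2-fold higher. In Cd39-/- the pattern was another: Angpt2 and Pgf were at least 2-fold higher on the ligated array and Vegfb and Vegfc at least 2-fold lower. No gene of the family passed 2-fold in the same direction in both genotypes. Of all genes 3.63% were higher and 1.45% lower in both, so none among 10 genes is near that share and sets the family apart in no way.

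Among the VEGF ligands, Vegfa had log2 values of 6.97 on the array labelled Cd39-/-, ligated, 6.15 in Cd39-/- sham, 5.58 in wild type ligated and 5.66 in wild type sham. The Cd39-/- arrays were thus the upper pair, and the wild-type arrays lay close together. Ligated minus sham was 0.82 in Cd39-/- (1.76-fold higher) and -0.08 in wild type. Against wild type sham the array labelled Cd39-/-, ligated, was higher by 1.31, past 2-fold. Hypoxia response genes, of which Vegfa is a textbook example although it was not in the list, had mean log2 values of 6.28 on the array labelled Cd39-/-, ligated, 5.23 in Cd39-/- sham, 5.27 in wild type ligated and 5.26 in wild type sham. Like Vegfa, this list stood highest on the array labelled Cd39-/-, ligated, but unlike Vegfa its mean did not separate the sham arrays. Single genes of the list did, in both directions. Of 19 kept, 2 were at least 2-fold higher in Cd39-/- sham than in wild type sham and 3 lower. Of all genes 2.95% were higher and 3.54% lower there.

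Pgf, the placental growth factor that binds Flt1, had 4.08 on the array labelled Cd39-/-, ligated, 2.11 in Cd39-/- sham, 3.12 in wild type ligated and 2.95 in wild type sham. It was clear of background only on the ligated Cd39-/- array, stood just above it on the wild-type arrays and was under it in Cd39-/- sham. The measured Cd39-/- difference of 1.96 rests on a value under background, and against the background of the sham array Pgf was at least 2.15-fold higher. In wild type the difference was 0.17, and wild type ligated was higher by 1.01 against Cd39-/- sham as measured.

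Vegfb, a Flt1 ligand, had 4.09 on the array labelled Cd39-/-, ligated, 5.22 in Cd39-/- sham, 4.62 in wild type ligated and 4.67 in wild type sham. Vegfc, the ligand of Flt4, had 3.42, 4.96, 4.19 and 4.41 on the same arrays in that order. Both were highest in Cd39-/- sham and lowest on the array labelled Cd39-/-, ligated, and the wild-type arrays lay between. In Cd39-/- Vegfb was 2.19-fold lower (-1.13) and Vegfc 2.91-fold lower (-1.54) after ligation, against -0.05 and -0.22 in wild type. With wild type sham as the baseline for the array labelled Cd39-/-, ligated, neither passed 2-fold (-0.58 for Vegfb and -0.99 for Vegfc). Of all pairs of members, Vegfb and Vegfc had the nearest patterns over the 4 arrays (Euclidean distance of the centred log2 values 0.33), followed by Flt1 and Flt4 (0.34).

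Adipocyte markers had the same order of arrays as Vegfb and Vegfc at both ends. Their mean log2 values were 4.71 on the array labelled Cd39-/-, ligated (8 of 10 above background), 7.72 in Cd39-/- sham (10 of 10), 5.11 in wild type ligated (8 of 10) and 5.66 in wild type sham (9 of 10). In Cd39-/- sham the brown fat uncoupling protein Ucp1 stood at 9.71, against 4.14 in wild type sham. Whether fat in the RNA piece bears on Vegfb and Vegfc was not tested. In such bulk samples fewer cells of a type and less RNA per cell cannot be told apart.

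Vegfd, the other ligand of Flt4, had 6.12 on the array labelled Cd39-/-, ligated, 7.44 in Cd39-/- sham, 7.87 in wild type ligated and 8.32 in wild type sham. It was lower in ligated than in sham vein in both genotypes, by -1.32 in Cd39-/- and -0.46 in wild type. Unlike Vegfc it was lower, not higher, in Cd39-/- sham than in wild type sham (-0.88).

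**Figure D2:**
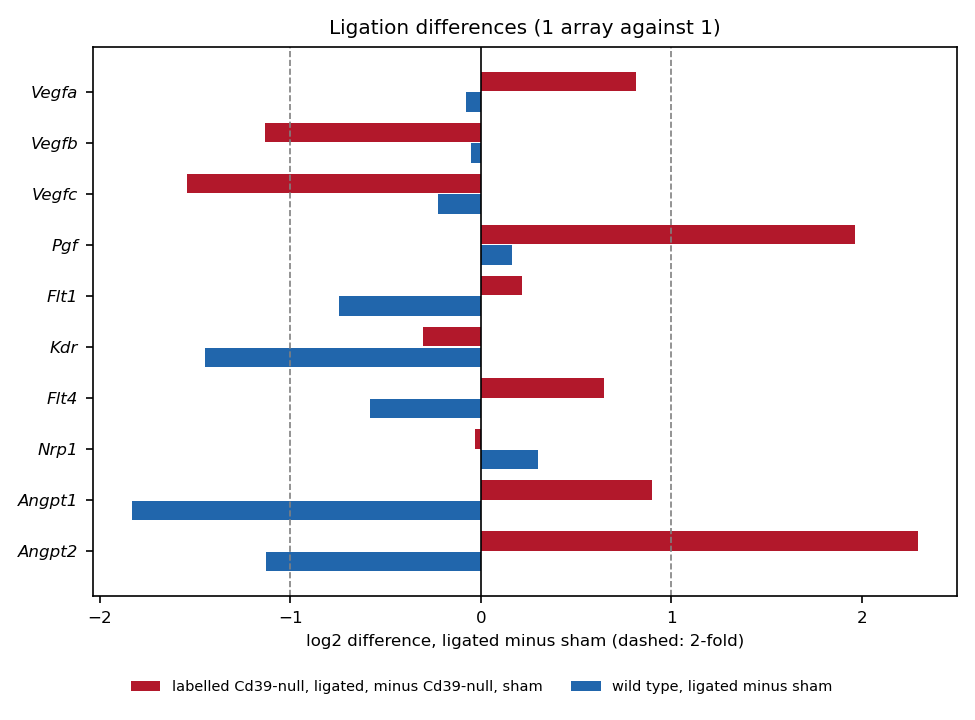
Log2 difference, ligated minus sham (horizontal axis), for each gene in Cd39-/- (red, upper bar) and wild type (blue, lower bar), 1 array against 1; dashed lines mark 2-fold. Angpt2 stands at 2.29 in Cd39-/- and -1.13 in wild type, Angpt1 at 0.90 and -1.83, while Kdr is below 0 in both (-0.30 and -1.44).

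The 3 receptors were highest in wild type sham, and for Kdr and Flt1, though not for Flt4, the other arrays lay close together. Kdr had log2 values of 3.30 on the array labelled Cd39-/-, ligated, 3.60 in Cd39-/- sham, 3.47 in wild type ligated and 4.91 in wild type sham. Apart from wild type sham these values were not far above background, which limits what small differences among them can show. After ligation it was 2.72-fold lower in wild type (-1.44), and in Cd39-/-, where the sham value was already low, it differed by -0.30. Against the sham array of the other genotype these were turned about: the array labelled Cd39-/-, ligated, differed by -1.61 and wild type ligated by -0.14. Flt1 had 5.92 on the array labelled Cd39-/-, ligated, 5.70 in Cd39-/- sham, 5.79 in wild type ligated and 6.53 in wild type sham. The wild-type difference of Flt1 was -0.74 (1.67-fold lower), and the Cd39-/- difference of 0.22 took the other sign after either renormalisation of the arrays (-0.09 with quantile normalisation and -0.04 with cyclic loess). Flt4 had 3.30 on the array labelled Cd39-/-, ligated, 2.65 in Cd39-/- sham, 3.14 in wild type ligated and 3.72 in wild type sham. It was near background throughout and under it in Cd39-/- sham, so the Cd39-/- difference of 0.65 is at least 1.26-fold once the sham value is raised to background, and the wild-type difference was -0.58.

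Endothelial markers, which would carry receptors of this kind, had mean log2 values of 5.54 on the array labelled Cd39-/-, ligated, 5.41 in Cd39-/- sham, 5.67 in wild type ligated and 6.25 in wild type sham. They too were highest in wild type sham. Of 19 markers 6 were at least 2-fold lower after ligation in wild type (median -0.32, against -0.01 over all genes). In Cd39-/- sham 8 were at least 2-fold lower than in wild type sham (median -0.89, against -0.07). Of all genes 3.63% and 3.54% were lower in these comparisons. Both subtract the same single wild-type sham array, so they are not independent. The Kdr differences in the same comparisons were -1.44 and -1.31, and the part of the endothelial markers in them was not tested.

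The co-receptor Nrp1 was flat by comparison. It had 6.35 on the array labelled Cd39-/-, ligated, 6.38 in Cd39-/- sham, 7.10 in wild type ligated and 6.80 in wild type sham. Ligated minus sham was -0.03 in Cd39-/- and 0.30 in wild type, and its span over the arrays of 0.75 was the smallest of the 10 genes. Its relative Nrp2, a co-receptor of Vegfc, was similarly even, with 5.17 on the array labelled Cd39-/-, ligated, 4.94 in Cd39-/- sham, 5.28 in wild type ligated and 5.38 in wild type sham.

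The angiopoietins had the largest differences between the genotypes in their ligation differences, though not in each comparison of the genotypes. Angpt2 had log2 values of 6.56 on the array labelled Cd39-/-, ligated, 4.26 in Cd39-/- sham, 5.27 in wild type ligated and 6.39 in wild type sham. It was as high on the array labelled Cd39-/-, ligated, as in wild type sham, and lowest in Cd39-/- sham. Ligated minus sham was 2.29 in Cd39-/- (4.90-fold higher) and -1.13 in wild type (2.18-fold lower).

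The direction of Angpt2 depended on which sham array served as the baseline. Against wild type sham, the array labelled Cd39-/-, ligated, differed by 0.16. Against Cd39-/- sham, wild type ligated was higher by 1.00 rather than lower. This second baseline, for wild type, was chosen after the values were seen.

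Angpt1 had 5.63 on the array labelled Cd39-/-, ligated, 4.73 in Cd39-/- sham, 3.26 in wild type ligated and 5.09 in wild type sham. Here wild type ligated stood apart as the low array, not far above its background of 2.66. Ligated minus sham was 0.90 in Cd39-/- (1.86-fold higher) and -1.83 in wild type (3.55-fold lower), and against Cd39-/- sham wild type ligated differed by -1.48. A share of 0.503% of the 14115 genes had a lower wild-type ligation difference.

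Platelet markers had mean log2 values of 7.94 on the array labelled Cd39-/-, ligated, 4.00 in Cd39-/- sham, 4.35 in wild type ligated and 5.42 in wild type sham, over 8 of 10 listed genes on the array. Of these 8, all were above background on each array except Cd39-/- sham, where 6 were. Like Angpt1 they were highest on the array labelled Cd39-/-, ligated, and lower in wild type ligated than in wild type sham, but unlike Angpt1 they were lowest in Cd39-/- sham. Angpt2 had the same order of the 4 arrays as the platelet markers throughout. Mural cell markers, the other usual source of Angpt1, had mean values of 5.13, 5.72, 6.44 and 6.74 on the 4 arrays in the same order, and so were lowest where Angpt1 was highest. The part of either cell type in Angpt1 or Angpt2 was not tested.

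The receptor of the angiopoietins, Tek, had 4.77 on the array labelled Cd39-/-, ligated, 4.90 in Cd39-/- sham, 4.44 in wild type ligated and 6.14 in wild type sham. The wild-type ligation difference of Tek was -1.70 and its Cd39-/- difference -0.13. As for Kdr, wild type sham stood alone at the top, but the lowest array was wild type ligated. The orphan receptor Tie1, the partner of Tek, differed less in wild type (-0.38), and was higher by 0.55 in Cd39-/-. Ptprb, the endothelial phosphatase that restrains Tek and Kdr, had 5.94 on the array labelled Cd39-/-, ligated, 7.58 in Cd39-/- sham, 6.49 in wild type ligated and 8.33 in wild type sham. It was lower after ligation in both genotypes by similar amounts (-1.64 and -1.84).

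**Figure D3:**
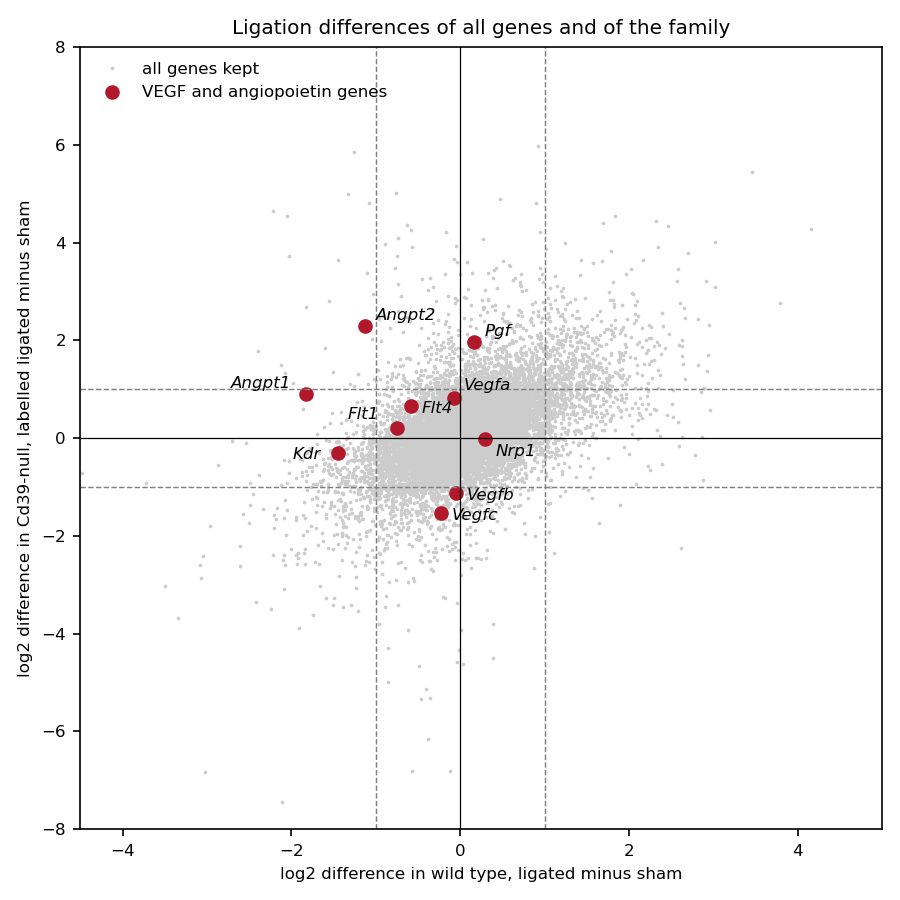
Ligation differences (log2, ligated minus sham) in wild type (horizontal) and Cd39-/- (vertical) for the 14115 genes kept (grey) and the 10 genes (red, named); dashed lines mark 2-fold. Angpt1 and Angpt2 lie to the upper left, lower in wild type and higher in Cd39-/-. None of the 10 lies past 2-fold in the same direction on both axes, where 3.63% of all genes were higher and 1.45% lower on both.

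Set against all genes, the counts of members were as follows. In Cd39-/- 2 of 10 were at least 2-fold higher after ligation and 2 lower, where 10.9% of all genes were higher and 5.80% lower, a share of 16.7% in either direction. At least 1.5-fold apart were 7 in Cd39-/- (36.5% of all genes). In wild type 0 were at least 2-fold higher and 3 lower, where 6.60% of all genes were higher and 3.63% lower, together 10.2% (27.6% at 1.5-fold). The median difference of the 10 genes was 0.43 in Cd39-/-, against 0.03 over all genes, and -0.40 in wild type, against -0.01 over all genes. The 2 ligation comparisons share no array. The signs of the ligation differences were opposite for 6 of the 10 genes, where this held for 31.5% of all genes, and Flt1 and Nrp1, with small Cd39-/- differences, were among the 6. The difference of the ligation differences (Cd39-/- minus wild type) was at least 2-fold for 7 genes, 5 of them higher and 2 lower, where 12.5% of all genes passed, 6.99% higher and 5.50% lower (31.5% in either direction at 1.5-fold). It was 3.42 for Angpt2, 2.73 for Angpt1, 1.80 for Pgf, 1.23 for Flt4, 1.14 for Kdr, -1.08 for Vegfb and -1.32 for Vegfc. With values under background raised to it, Pgf (0.94) and Flt4 (0.91) no longer passed, which leaves 5.

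Span over the arrays was at least 1 log2 for 8 of 10 genes, where 29.6% of all genes reached it. The median span was 1.46, against 0.71 over all genes. The array labelled Cd39-/-, ligated, was the highest for 4 genes (25.5% of all genes were highest there) and the lowest for 4 (29.2%). Cd39-/- sham was the highest for 2 (23.2%) and the lowest for 4 (31.2%), and wild type ligated the highest for 1 (23.0%) and the lowest for 2 (18.2%). Wild type sham was the highest for 3, the receptors (28.3%), and the lowest for 0 (21.4%).

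The genotypes were compared next. In sham vein the receptors and Angpt2 were lower in Cd39-/- than in wild type, and in ligated vein the angiopoietins and Vegfa were higher on the array labelled Cd39-/-. Cd39-/- minus wild type in sham vein was -2.13 for Angpt2 (4.38-fold lower), -1.31 for Kdr (2.48-fold lower) and -1.07 for Flt4 (2.09-fold lower as measured, at least 1.68-fold with the background as floor). A share of 0.120% of all genes had a lower value in this comparison than Angpt2. Flt1 (-0.83), Nrp1 (-0.42) and Angpt1 (-0.35) were lower by less than 2-fold, and Vegfa (0.49), Vegfb (0.56) and Vegfc (0.55) higher by less than 2-fold. Pgf was at or under background on both sham arrays to within 0.02, so no fold is given. In all, 3 of 10 genes were at least 2-fold lower and 0 higher, where 3.54% of all genes were lower and 2.95% higher, together 6.48%. At 1.5-fold 5 of the 10 differed, against 22.6% of all genes.

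In ligated vein the array labelled Cd39-/- minus wild type was 2.38 for Angpt1 (5.19-fold higher), 1.39 for Vegfa (2.61-fold higher) and 1.29 for Angpt2 (2.44-fold higher). Pgf, at 0.96, lay just inside 2-fold. The 3 receptors differed by 0.17 or less in size (0.13 for Flt1, -0.17 for Kdr and 0.16 for Flt4), and Vegfb (-0.53), Vegfc (-0.76) and Nrp1 (-0.75) were lower by less than 2-fold. In this comparison 3 of 10 genes were at least 2-fold higher and 0 lower, where 3.61% of all genes were higher and 2.66% lower, together 6.27%. At 1.5-fold 6 of the 10 differed, against 17.8% of all genes. Both arrays of ligated vein had Entpd1 at the same level, as given above.

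**Figure D4:**
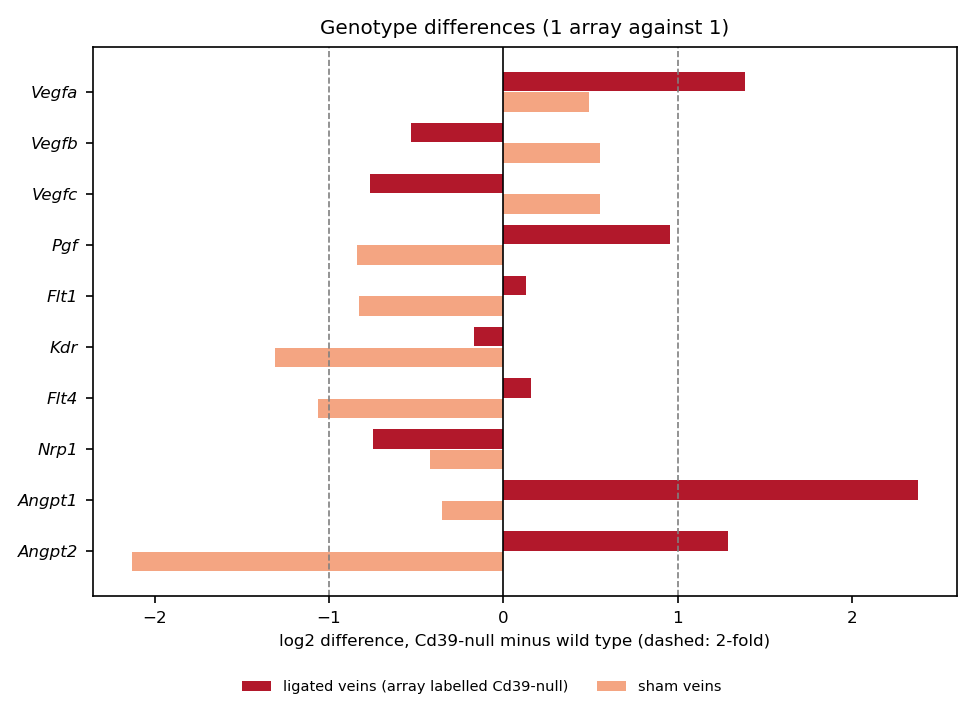
Log2 difference, Cd39-/- minus wild type (horizontal axis), for each gene in ligated vein (red, upper bar) and sham vein (orange, lower bar), 1 array against 1; dashed lines mark 2-fold. Angpt2 stands at 1.29 in ligated and -2.13 in sham vein, the 3 receptors are below 0 in sham vein and near 0 in ligated vein, and Vegfa is above 0 in both (1.39 and 0.49).

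A test was possible over all 4 arrays together, with genotype and ligation as separate terms in limma across the 14115 genes and 1 residual degree of freedom. For ligation, 0 of the 10 genes had an adjusted p under 0.05, as did 0 of all genes, and at an unadjusted p under 0.05 there were 0 of the 10 against 21.0% of all genes (13.2% higher and 7.79% lower). By the mean difference 1 gene, Pgf, was at least 2-fold apart, against 11.0% of all genes. The smallest adjusted p of the family from limma was 0.249, for Kdr, with a mean ligation difference of -0.87 ± 0.34 (SE) and lower values in both genotypes. Vegfc followed with -0.88 ± 0.38 (adjusted p = 0.274) and Pgf with 1.06 ± 0.47 (adjusted p = 0.286). For the angiopoietins the mean was no summary of the genotypes, with 0.58 ± 0.82 for Angpt2 and -0.47 ± 0.67 for Angpt1, since limma counts the opposite signs as error.

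For genotype, limma likewise gave 0 genes with an adjusted p under 0.05, among the 10 and among all genes. At an unadjusted p under 0.05 there was 1 of the 10, Vegfa, against 6.94% of all genes (2.28% higher and 4.65% lower). By the mean difference 1 gene, Angpt1, was at least 2-fold apart (1.01 ± 0.67), against 3.10% of all genes. Vegfa was higher in Cd39-/- by 0.94 ± 0.30 (SE) over both surgeries, with an unadjusted p of 0.0293 and an adjusted p of 0.689 in limma. The mean difference of Kdr was -0.74 ± 0.34 and that of Nrp1 -0.59 ± 0.23, each lower in both surgeries, with adjusted p-values of 0.746 and 0.734 in limma.

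Other genes of the VEGF and Tie pathways were then examined: 24 of 25 listed genes were kept, covering further ligands and receptors and the kinases, adaptors and phosphatases downstream. In Cd39-/- 4 were at least 2-fold higher after ligation and 3 lower (median 0.14), where 10.9% of all genes were higher and 5.80% lower. In wild type 1 was higher and 3 lower (median -0.11), where 6.60% of all genes were higher and 3.63% lower. The higher ones in Cd39-/- were the focal adhesion adaptor Pxn (1.90), the calcineurin inhibitor Rcan1, a known Vegfa-induced gene (1.79), the kinase Akt1 (1.63) and the adaptor Dok2, which binds activated Tek (1.01). Pxn also accounted for the gene higher in wild type (1.00). Lower in Cd39-/- were Ptprb, the regulatory subunit of phosphoinositide 3-kinase Pik3r1 (-1.54) and Vegfd, and lower in wild type were Ptprb, Tek and the nitric oxide synthase Nos3 (-1.42). With limma 0 of the 24 had an adjusted p under 0.05 for ligation, as did 0 of all genes. At an unadjusted p under 0.05 in limma there were 8, against 21.0% of all genes. Of the 8, 3 were higher and 5 lower, where 13.2% of all genes were higher and 7.79% lower. Akt1, Dok2 and Nos3 are named here because they complete these counts, after their values were seen. Nos3 was also named by rule, among the endothelial markers.

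In sham vein 4 of the 24 were at least 2-fold lower in Cd39-/- and 0 higher (median -0.43, against -0.07 over all genes). Of all genes 3.54% were lower and 2.95% higher. The 4 lower ones were Tek (-1.24), Nos3 (-1.24), the ligand Angpt4 (-1.28) and Akt1 (-1.02). Angpt4 was under background in Cd39-/- sham. Tie1 (-0.99) lay just outside this count.

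Neuropilins also bind class 3 semaphorins, which can compete with VEGF ligands. Of 12 semaphorin and plexin genes, 1 was at least 2-fold higher after ligation in Cd39-/- (the plexin Plxna4, 1.61), where 10.9% of all genes were. In wild type 1 was at least 2-fold lower (Sema3c, -1.45), where 3.63% of all genes were. The median of the 12 was 0.09 in Cd39-/- and -0.48 in wild type, against 0.03 and -0.01 over all genes. Sema3d was lower in both genotypes by similar amounts (-0.82 and -0.91), and its adjusted p of 0.147 in limma was the smallest of this list.

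Hypoxia response genes, which share their main regulator Hif1a with Vegfa, differed between the genotypes in ligated vein. In Cd39-/- 9 of 19 were at least 2-fold higher after ligation and 0 lower (median 0.94), where 10.9% of all genes were higher and 5.80% lower. In wild type 1 was higher and 1 lower (median -0.13), where 6.60% of all genes were higher and 3.63% lower. The glucose transporter Slc2a1 had 7.20 on the array labelled Cd39-/-, ligated, 4.42 in Cd39-/- sham, 5.40 in wild type ligated and 4.41 in wild type sham. The collagen hydroxylase P4ha1 was higher by 1.95 in Cd39-/- and 0.63 in wild type. Ldha, which makes lactate, was higher in both genotypes (1.45 and 1.63), while Epas1, the endothelial relative of Hif1a, was lower in both (-0.64 and -1.26). Between the ligated arrays 9 of the 19 were at least 2-fold higher on the one labelled Cd39-/- and 0 lower (median 0.98, against -0.03 over all genes). Of all genes 3.61% were higher there and 2.66% lower.

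**Figure D5:**
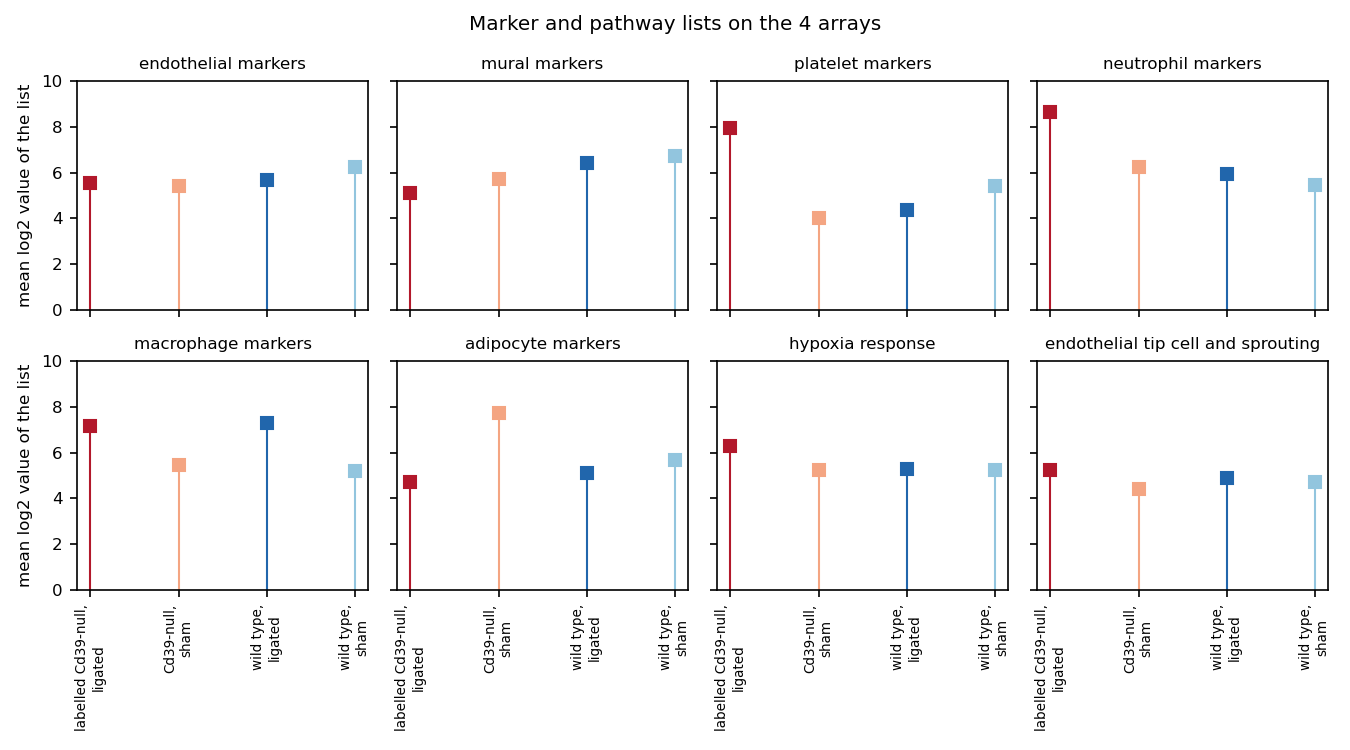
Mean log2 value (vertical axis) of 8 marker and pathway lists on the 4 arrays, 1 pool each. Platelet (7.94), neutrophil (8.66) and hypoxia response genes (6.28) stand highest on the array labelled Cd39-/-, ligated, adipocyte markers (7.72) in Cd39-/- sham, and endothelial (6.25) and mural markers (6.74) in wild type sham.

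Genes of sprouting endothelium, which lie downstream of VEGF signalling, were compared in the same way. Of 12 kept genes 6 were at least 2-fold higher in Cd39-/- after ligation and 0 lower (median 0.98, against 0.03 over all genes). In wild type 2 were higher and 1 lower (median 0.10, against -0.01). Of all genes 10.9% were higher and 5.80% lower in Cd39-/-, and 6.60% higher and 3.63% lower in wild type. The apelin receptor Aplnr was higher in both genotypes (1.05 and 1.66), as was its ligand Apln (1.24 and 0.58). The urokinase receptor Plaur (2.21 and 0.78) and the chemokine receptor Cxcr4 (1.15 and 0.18), both also abundant on leukocytes, were higher mainly in Cd39-/-. Neutrophil markers stood at a mean of 8.66 on the array labelled Cd39-/-, ligated, 6.25 in Cd39-/- sham, 5.94 in wild type ligated and 5.49 in wild type sham, and their part in Plaur and Cxcr4 was not tested.

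Among 13 kept genes for other angiogenic factors and inhibitors, 3 were at least 2-fold higher and 1 lower after ligation in Cd39-/-. Of all genes 10.9% were higher and 5.80% lower there. In wild type 2 of the 13 were higher and 0 lower, where 6.60% of all genes were higher and 3.63% lower. The angiogenesis inhibitor Thbs1, also a major platelet protein, had 9.47 on the array labelled Cd39-/-, ligated, 4.65 in Cd39-/- sham, 8.00 in wild type ligated and 7.11 in wild type sham. Its difference was 4.82 in Cd39-/- and 0.89 in wild type. The growth factor Hbegf was higher in both genotypes (1.54 and 0.54). Thbs2 was higher in both as measured (1.33 and 1.86), with Cd39-/- sham under background. Pdgfd, a ligand of the platelet-derived growth factor receptor of mural cells, was lower in both as measured (-1.37 and -0.94), with the array labelled Cd39-/-, ligated, under background.

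Macrophages can supply VEGF ligands and carry Flt1 and Nrp1. Their 12 markers had mean log2 values of 7.15 on the array labelled Cd39-/-, ligated, 5.45 in Cd39-/- sham, 7.29 in wild type ligated and 5.21 in wild type sham. All 12 were at least 2-fold higher after ligation in wild type (6.60% of all genes) and 8 of 12 in Cd39-/- (10.9% of all genes). The part of macrophages in the values of the 10 genes was not tested. Lymphatic endothelial markers, which bear on Flt4, had means of 6.01, 5.06, 5.12 and 5.62 on the 4 arrays in the same order. Only 5 genes enter these means, and they were unlike each other. Their ligation differences ran from -0.12 to 2.74 in Cd39-/- and from -2.39 to 1.26 in wild type. Of these the podoplanin gene Pdpn, also made by macrophages and fibroblasts, was higher in both genotypes (2.74 and 1.26), and the lymphatic regulator Prox1 differed by 0.30 in Cd39-/- and -0.91 in wild type. Fibroblast markers had means of 6.55, 6.29, 7.39 and 6.69, B cell markers 2.72, 5.17, 2.56 and 3.21, and skeletal and cardiac muscle markers 3.32, 4.25, 3.61 and 4.88, in that order.

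Finally, genes with the most similar pattern were sought among 13282 named genes, by the Euclidean distance of the centred log2 values over the 4 arrays. The nearest genes lay 0.03 to 0.38 from their member. Kdr was nearest to Id4 (0.07), Cdh13, a cadherin of endothelial and smooth muscle cells (0.12), and Synm (0.14). Angpt2 had no gene as close, the nearest being Arhgap10 (0.38), Gcnt2 (0.63) and Csgalnact1 (0.64). The nearest to Angpt1 were Stfa3 (0.35), Lrrn3 (0.51) and Olr1, the receptor of oxidised LDL (0.53). The nearest genes of the other members are not printed. With Pearson correlation in place of distance, 0 of the 24 nearest genes of the 8 members compared were found again, so the likeness depends on the measure.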

How the data were processed

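RNA of the inferior vena cava was extracted with Trizol, and amplified, biotin-labelled cDNA was hybridised to Affymetrix arrays, per the labels' protocols. The authors deposited log2 values, 1 for each probe set. The submitters' processing notes name oligo and RMA, with no versions. RMA removes background and makes the arrays' distributions alike, so a shift of all genes would not show. No read depth applies; 4 arrays limit the precision.

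The values were used as deposited. Of 35556 probe sets 21218 carried 1 gene symbol in the platform annotation. The brightest probe set of a gene was used, and genes with a mean log2 of at least 2.29 were kept. Differences between arrays have no test. limma 3.58.1 in R 4.3.3 (lmFit, eBayes, Benjamini-Hochberg over all kept genes) fitted genotype plus ligation, with a prior of 3.67 degrees of freedom; the script was tested on simulated data. The p-values rest on pools without replicates.

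The 10 genes and all lists were chosen with earlier results of these data known. The rule for naming covered the 10 genes, Entpd1, Tek, Tie1, Nrp2 and Vegfd. It also covered up to 4 genes per list with the largest mean ligation difference, and the 3 nearest genes of each member spanning at least 1 log2. Not all genes under the rule are printed: nearest genes are given for Kdr, Angpt1 and Angpt2 only, and list genes for some lists. Genes outside that rule were named after their values were seen: Akt1, Dok2, Angpt4 and Plxna4. Xist, too dim to be kept, was also named outside the rule. Symbols of predicted genes, small RNAs, olfactory and vomeronasal receptors were left out of the search for nearest genes. Sequences came from RefSeq (GRCm38.p6); 1668 of 1668 overlapping windows on opposite strands were reverse complements. The sources name no build for the array, and no array coordinates are used.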

Additional observations from a re-analysis of the deposited data

Results flagged for a closer look

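With 1 array per group no sample could be tested as an outlier. In 3 of the 10 genes the ligation difference had opposite signs in the genotypes and the difference of the differences was at least 2-fold. It was 3.42 for Angpt2 (2.29 in Cd39-/- and -1.13 in wild type), 2.73 for Angpt1 (0.90 and -1.83) and 1.23 for Flt4 (0.65 and -0.58). The difference between the genotypes was not tested, since no array was replicated. The array labelled Cd39-/-, ligated, enters all 3, and its Entpd1 level goes against its label. Flt4 was under background in Cd39-/- sham, and with that value raised to background its difference of differences was 0.91.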

How the results depend on the processing

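The arrays were renormalised by quantiles or cyclic loess, the filter on dim genes was dropped or set at the 50th percentile, probe sets of a gene were averaged, the threshold was set at 1.5-fold, and the reference array was exchanged. Added after the data were seen were the raising of dim values to background and the Cd39-/- sham reference for wild type. At 1.5-fold 7 members in place of 4 differed after ligation in Cd39-/-, 5 in place of 3 between the genotypes in sham vein, and 6 in place of 3 in ligated vein. Over all genes this threshold gave 5145 in place of 2355 (ligation, Cd39-/-), 3896 in place of 1444 (ligation, wild type), 3192 in place of 915 (genotype, sham), 2519 in place of 885 (genotype, ligated) and 4448 in place of 1763 (difference of differences).

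With wild type sham as reference for the array labelled Cd39-/-, ligated, Vegfb (-0.58), Vegfc (-0.99) and Angpt2 (0.16) no longer passed 2-fold, while Kdr (-1.61) and Vegfa (1.31) did. With Cd39-/- sham as reference for wild type ligated, Kdr (-0.14) no longer passed, Pgf (1.01) did as measured, and Angpt2 turned its sign (1.00 in place of -1.13). Pgf passed only through a Cd39-/- sham value under background (2.11, background 2.97). The cause of these changes with the reference was not tested. Of 310 recomputed member differences 288 moved by less than the fitted residual SD. Many of these could not move. Each member has 1 probe set, so the filter settings and the averaging of probe sets return the same difference. Raising dim values changes only Pgf and Flt4. The total is therefore no measure of robustness, and only renormalisation and the exchanged reference could move every member. The sign changed in 8, of which 5 came with an exchanged reference (Flt1, Flt4 and Angpt2), 2 with renormalisation (Flt1) and 1 with dim values raised (Pgf in sham vein). In limma 0 members had an adjusted p under 0.05 for either factor with either renormalisation, either filter, averaged probe sets, a trended robust prior or the factor alone; the other settings were not run in limma. Members with an unadjusted p under 0.05 for ligation numbered 2 after quantile normalisation and 1 after cyclic loess, in place of 0, and for genotype 2 without the filter and 0 with genotype alone in the model, in place of 1. By mean ligation difference 1 member passed 2-fold, against 2 after either renormalisation, 0 with the 50th percentile filter, which left out dim members, and 3 without the array labelled Cd39-/-, ligated. By mean genotype difference 1 member passed, against 0 after quantile normalisation and 3 without that array. Leaving that array out leaves 1 array against 1 for each factor, not a mean. Both counts of 3 are therefore the counts given above for wild-type ligation and for genotype in sham vein. They are no check of the mean differences. Of all genes at least 2-fold apart after ligation in Cd39-/-, 65.3% were higher, against 51.4% after quantile normalisation and 53.9% after cyclic loess; for genotype in sham vein these shares were 45.5%, 50.4% and 58.4%.

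No paired analysis was possible because each group is 1 array. Pgf and Flt4 lie near background, which limits the size of their differences. Other members were also low on single arrays, though above background. These were Kdr on all arrays but wild type sham, and Angpt1 in wild type ligated (3.26, background 2.66). Vegfc on the array labelled Cd39-/-, ligated (3.42, background 2.68), was another. The size of differences resting on these values may be limited too.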
